A study of Glycine max with 42 samples.

Results

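The genes described here are 150 of the 38177 genes measured in leaves of the soybean cultivar Williams 82, chosen by their normalised counts: a high level in depodded plants among genes with little signal in the initial and control groups. A gene was eligible when its mean normalised count was under 20 in the initial group and in each of the 4 control groups, which 9379 genes met. Of these, the 150 with the highest mean of log2(normalised count + 1) over 9 depodded libraries, those numbered 3, 4 and 5 in their titles, were taken. These values chose the genes, so their high level in those 9 libraries and their low level in the controls are given below as a description, with no test. The tests use a second soybean line, T295H, of which no library entered the choice. Differences among the depodded groups of numbers 3, 4 and 5 rest on the same 9 libraries that ranked the genes and are given as a description too, since a gene high in 1 of these groups could enter the list through that group.

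RNA from trifoliate leaves was sequenced in 3 libraries per group, in a time course from flowering to the start of leaf senescence. In Williams 82, depodded leaves, from plants whose sink was limited mechanically by pod removal, were sampled under the numbers 2, 3, 4 and 5, against control leaves with the same numbers and an initial group at day 38 after planting. Controls were labelled day 45, 54, 64 and 76 in the order of their numbers. The depodded libraries numbered 2 and 3 were labelled day 45 and 54, whereas those numbered 4 were labelled day 76 and those numbered 5 day 64, so label and title conflict for these 2 groups. Groups of Williams 82 are therefore called by their title number. In T295H, leaves of sterile plants, whose sink was limited genetically, were sampled at day 35 and day 63, against control leaves of the same days and an initial group at day 28. The initial groups carry no label of treatment, and the sources used here do not say how sterility arises in T295H or how many plants went into a library.

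A growing soybean pod draws sugars and amino acids from the leaves that feed it, and the leaf is called the source and the seed the sink. When pods are taken off or never form, export from the leaf has fewer places to go; soybean leaves are known to fill with starch and vegetative storage proteins in that state and to stay green for longer. In normal plants the leaves senesce as the seeds fill, with breakdown of chlorophyll and photosynthetic proteins and export of their nitrogen. The deposited tables give gene identifiers without names and no identifier matched the RefSeq table used as reference, so the genes are called by identifier and no function is assigned to any of them.

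The working description of these genes as expressed only after depodding was not borne out by the values. In 128 of the 150 genes, the highest of the 5 limiting group means was at least 10 normalised counts, in 84 it was at least 15, and in 4 it was under 5. The mean over the 9 depodded libraries was 2.01 times the highest limiting mean in the median gene, with a range of 1.11 to 24.9, and was under 2 times that mean in 75 genes and at least 10 times in 7. Against the mean of all 15 initial and control libraries, the ratio had a median of 3.22 and a range of 1.37 to 114. In 13 genes (8.67%) all 9 depodded libraries lay above all 15 others, a pattern held by 0.281% of all genes tested, and this count follows in part from the choice itself. The genes are accordingly called the 150 low-control genes.

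Libraries held 6663477 to 13166094 recovered counts in Williams 82 and 5471456 to 11877733 in T295H. In the controls of Williams 82 a median low-control gene rested on 4 to 16 counts per library, in depodded libraries of numbers 3, 4 and 5 on 18 to 46. Nearly all counts above 0 were even (98.9% in Williams 82, 99% in T295H), so floors and intervals were computed on pairs of counts, and they cover counting error only. A floor of 3 pairs per library equals a normalised count of 3.8 to 11.9 in Williams 82 and of 4.22 to 19.3 in T295H, the highest in T295H initial replicate 2, in which 10 genes held 41.3% of the counts. In a bulk leaf sample, fewer cells that express a gene and less RNA per cell cannot be told apart.

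Summed over the 150 genes, the normalised count was 1630 to 2139 per library in depodded leaves of number 2, 3436 to 4459 at number 3, 4453 to 6017 at number 4 and 5851 to 10376 at number 5. The sum was 845 to 1806 over the 12 control libraries and 1253 to 1915 in initial leaves. From number 3 on, every depodded library thus summed to more than every control library, as the choice favours, and 2 of the 3 libraries of number 2 lay within the range of the controls. The median of the 150 group means was 11.2, 22.3, 29.3 and 35.5 in depodded leaves from number 2 to number 5, 9.53, 10.8, 10.3 and 5.55 in the controls of the same numbers, and 9.54 in initial leaves. A group mean of at least 20 was reached by 19 genes in depodded leaves of number 2, by 96 at number 3, 133 at number 4 and 126 at number 5.

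**Figure D1:**
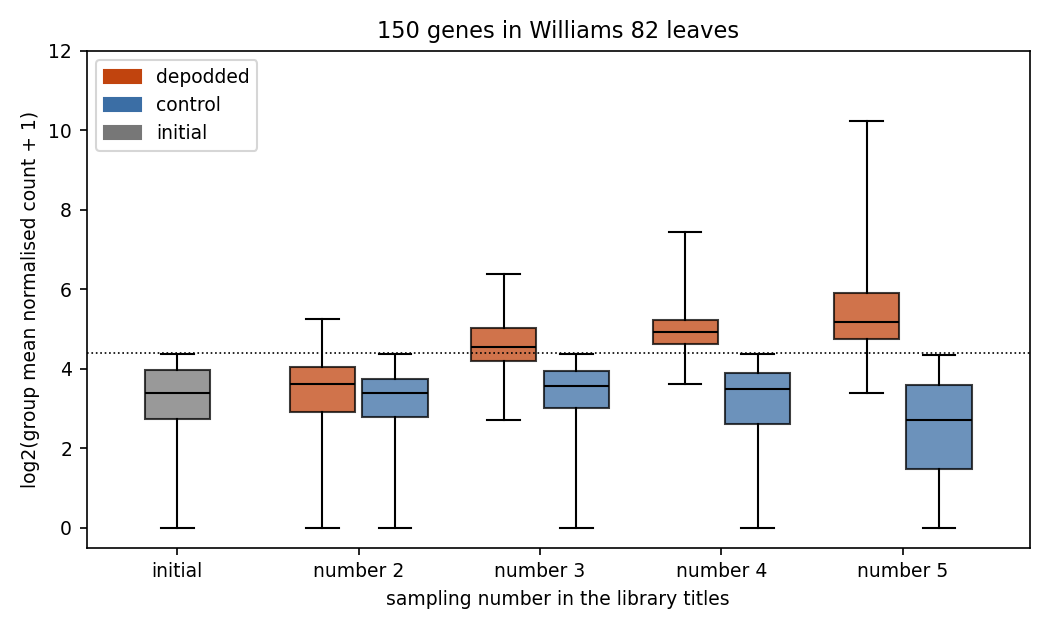
Group means of the 150 low-control genes in Williams 82 on a log2(normalised count + 1) axis, by the sampling number in the library titles, with depodded groups left of the controls of the same number. The box spans the quartiles, the line is the median and the whiskers reach the lowest and highest gene; the dotted line is the limit of 20 that chose the genes, and the medians of the depodded groups are 11.2, 22.3, 29.3 and 35.5 normalised counts from number 2 to number 5.

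Counted gene by gene, all 3 depodded libraries lay above all 3 controls of the same number in 88 of the 150 at number 3, in 105 at number 4 and in 128 at number 5, against 16.1%, 20.4% and 23.4% of all genes tested. The rule chose for this difference, so nothing is read from it. The highest of the 4 depodded means was at number 5 in 86 genes, at number 4 in 40, at number 3 in 23 and at number 2 in 1. In the order of the titles, 55 genes had a higher mean at each successive number. In the order of the day labels, with number 5 before number 4, 18 did. The choice used numbers 3, 4 and 5 but not number 2, so it favours a low place for number 2 in these counts. No share over all genes is given beside them.

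Glyma.03G028000 had the highest mean over the 9 depodded libraries, 478 normalised counts. It had 0, 3.95 and 15.4 normalised counts in depodded leaves of number 2, 37.1, 95.7 and 41.3 at number 3, 371, 76.1 and 57 at number 4, and 1590, 189 and 1850 at number 5. Its 12 control libraries held between 0 and 1.98, and its initial libraries 51.6, 0 and 5.96. All 9 later depodded libraries were above all controls, but initial replicate 1 lay above 2 of the libraries of number 3. Within a depodded group the libraries differed widely: the mean of 168 at number 4 was 66.5 without replicate 1, and at number 5 replicate 2 was far below the other two. Without this gene the summed count of the other genes at number 5 was 5662 to 8787.

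Glyma.U033700, second in rank, had 87.1, 44.2 and 45.2 normalised counts in depodded leaves of number 3, 233, 179 and 108 at number 4, and 149, 87 and 98 at number 5. Its control and initial libraries held 0 to 27.8, so the 9 depodded libraries stood clear of all 15 others. At number 2 the depodded libraries held 4.59, 0 and 10.2, against 1.97, 0 and 8.93 in the controls, with no separation. Most of the list is of lower level: the median gene averaged 29.7 normalised counts over the 9 depodded libraries, the lowest 21.8, and 25 genes averaged 50 or more.

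At the edge of the list the choice is narrow. Glyma.06G246700, the last gene taken, and Glyma.10G298500, the first left out by rank, both had a mean log2 value of 4.47. Glyma.10G113500, with the highest limiting mean of a gene taken, averaged 19.92 in controls of number 2, and Glyma.04G056200, just over the limit, averaged 20.01 in the same group. With a limit of 10 or of 40 in place of 20, the list of 150 shared 22 or 14 genes with the one used.

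Number 2, labelled day 45 in both groups, was the first sampling after depodding, and its depodded libraries played no part in the choice. The mean in depodded leaves was above that of controls in 96 of the 150 genes, and the 3 depodded libraries lay above the 3 controls in 12 genes (8%) and below them in 3 (2%), against 6.81% and 6.34% of all genes tested. Since the controls of number 2 were among the limits, a test was made only on the 150 genes chosen without them, of which 123 are shared. There limma called 0 higher and 0 lower at an adjusted p under 0.05, against 0.00342% and 0.00685% of all genes tested. At an unadjusted p under 0.05, 12 of these 150 genes were higher and 2 lower. Of all 29208 genes tested, 3046 passed that limit in either direction, so nothing is read from the 12 and 2. The median log2 difference was 0.16, against 0.01 over all genes tested.

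The 2 genes with the highest level in depodded leaves of number 2 were Glyma.07G162100 and Glyma.11G035100. Glyma.07G162100 had 34.4, 31.6 and 46.1 normalised counts in depodded leaves, against 5.9, 12.6 and 26.8 in controls, with no overlap. Glyma.11G035100 had 25.2, 9.87 and 64 in depodded leaves, against 3.94, 19.7 and 2.23 in controls; the groups overlapped, and its depodded mean of 33 was 17.6 without replicate 3. In 124 genes the depodded mean of number 2 was below those of numbers 3, 4 and 5, as the choice favours.

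Depodded leaves of number 4 were set beside those of number 3 as a description, since their libraries ranked the genes. In limma 0 of the 150 genes were higher and 0 lower, against 0.00685% and 0.0103% of all genes tested, and edgeR and DESeq2 on the recovered counts also called 0. At an unadjusted p under 0.05, 4 genes were higher and 0 lower, against 2505 of all 29208 genes tested in either direction. The median log2 difference of the 150 was 0.29, with 108 genes positive and 42 negative, against a median of -0.02 over all genes tested.

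For depodded leaves of number 5 against those of number 4, with the same limit, limma called 11 of the 150 genes higher (7.33%) and 2 lower (1.33%). Of all genes tested, 14.5% were higher and 13.1% lower, and of the 1166 tested genes under the control limit, 5.75% and 4.55%. Nothing is read from these shares, since the values compared ranked the genes. The 11 higher genes had a median group mean of 118 normalised counts at number 5 and of 17.6 at number 4. The count depended on single libraries. It was 7 without depodded number 4 replicate 2, 6 without replicate 3 of that group, 7 without depodded number 5 replicate 1 and 5 without replicate 3 of that group; the 2 lower genes became 1 without number 4 replicate 1 or 2 or number 5 replicate 2 or 3, and 4 without number 5 replicate 1.

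Glyma.07G089900 had 378, 139 and 331 normalised counts in depodded leaves of number 5, against 6.57, 17.9 and 16.5 at number 4. The groups did not overlap and the means differed 20.7-fold (log2 change 4.26). Glyma.08G120200 had 181, 131 and 153 at number 5, against 26.3, 13.4 and 5.52 at number 4, again with no overlap (log2 change 3.5). Glyma.08G120200 was not called without number 4 replicate 3. All 3 libraries of number 5 stood high in both genes. At number 3 their means were 15.8 and 23 in the same order. The high values at number 5 helped to place both genes in the list, so these differences are a description only.

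The lower genes were Glyma.14G102700 and Glyma.13G223300, the second named because the count was small and after its values were seen. Glyma.14G102700 had 14.7, 5.56 and 16.3 normalised counts in depodded leaves of number 5, against 42.7, 71.6 and 44.1 at number 4 (log2 change -2.11). Glyma.13G223300 had 16.6, 7.41 and 8.16 at number 5, against 34.5, 71.6 and 33.1 at number 4 (log2 change -2.01). In the controls of number 5 they averaged 11.6 ± 5.56 and 4.43 ± 2.53 (SD, n = 3).

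Single libraries were low in many of these genes. Depodded number 5 replicate 2 held the lowest value of the 3 in 79 of the 150 genes and was under 1/2 of both others in 23 (15.3%), against 3.77% of all genes tested. In other libraries the count of genes under 1/2 of both others was 22 in depodded number 3 replicate 3, 35 in depodded number 2 replicate 2, 33 in control number 5 replicate 1 and 30 in initial replicate 2. No share over all genes is given for these 4 libraries. In depodded number 2, control and initial leaves the genes rest on few counts, so nothing is read from these numbers. The summed count of depodded number 5 replicate 2 was 5851, against 10376 and 10265 in replicates 1 and 3. Without it, limma called 11 of the 150 genes higher and 1 lower at number 5 than at number 4. These libraries ranked the genes, so nothing is read from these calls either.

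All 150 genes were found in the T295H table, where 131 passed the minimum mean of 10 for testing. That table was normalised on its own, so levels are compared only within it. Sterile leaves of day 63 summed to 5328, 5360 and 5227 normalised counts over the 150 genes, against 1330, 1272 and 1270 in controls of day 63. The medians of the group means were 30.3 in sterile leaves and 5.42 in controls.

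At day 63 limma called 91 of the 150 genes higher in sterile than in control leaves (60.7%) and 0 lower, against 26.6% higher and 23.6% lower among all genes tested. With no filter on low values, 101 of the 150 were higher (67.3%) and 0 lower, against 22.5% and 19.9%. No gene was lower at an unadjusted p under 0.05, and edgeR and DESeq2 also called 0 lower. The median log2 change over all 150 was 2.17 and 142 genes were positive, while the median over all genes tested was 0.02. Genes that met the control limit in Williams 82, whatever their depodded level, are a second comparison. Of the 2134 of these that were tested, 29.9% were higher and 9.47% lower. The median log2 change over all 7414 of them in the T295H table was 0.46. They are not matched to the 150 in level: 72.9% had a mean under 20 in every T295H group, against 12% of the 150.

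**Figure D2:**
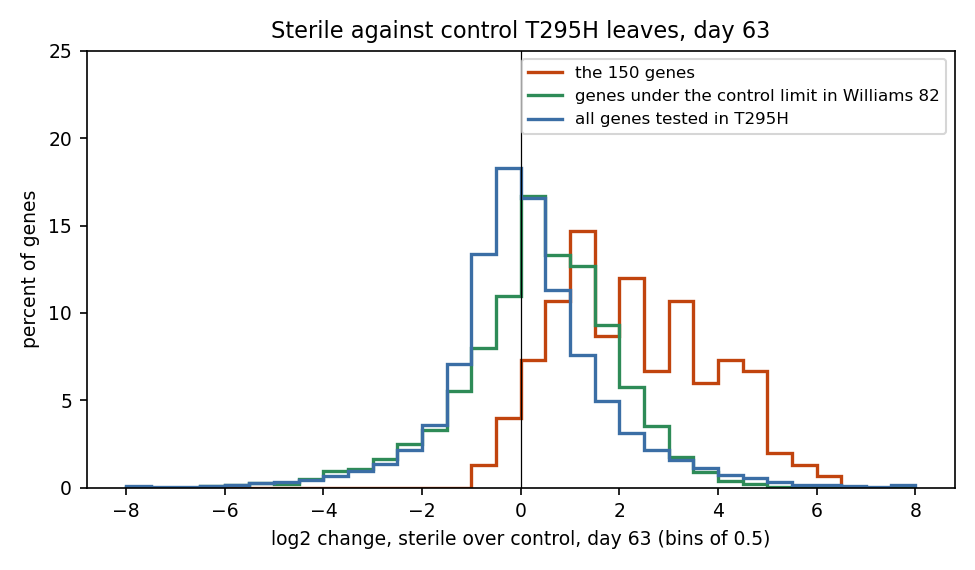
Share of genes (percent) by log2 change of sterile over control leaves of T295H at day 63, in bins of 0.5, for the 150 low-control genes, for genes under the control limit in Williams 82 and for all genes tested in T295H. The medians are 2.17, 0.46 and 0.02; larger changes are counted in the outermost bins.

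In 111 of the 150 genes (74%) all 3 sterile libraries of day 63 lay above all 3 controls, against 30.1% of all genes tested. The 91 genes called had a median mean of 39.9 normalised counts in sterile leaves and of 4.06 in controls, and their log2 changes ran from 0.91 to 6.18. In 22 of the 150 genes the 3 control libraries held no count at all; the floor of these libraries is a normalised count of 5.47, and 19 of the 22 had a sterile mean above it, from at least 1.02-fold to at least 11.3-fold higher. With such controls set at the floor, the median ratio over the 150 was 3.48.

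Glyma.U033700 had 105, 106 and 88.6 normalised counts in sterile leaves of day 63, against 0, 1.68 and 0 in controls. The control libraries held 2 counts in all, so the ratio of 178 has a 95% counting interval of 29.2 to 6530 (log2 change 6.18, SE 0.45, adjusted p 4.7e-08 in limma). Glyma.02G132200 had 77.4, 39.9 and 67.5 in sterile leaves and no count in any control library, so that it was at least 11.3-fold higher (log2 change 5.91, SE 0.32, adjusted p 2.4e-09 in limma). Both genes were also among the 13 with no overlap between the 9 depodded and 15 other libraries of Williams 82. Of these 13, 11 were called higher in sterile leaves, against 60.7% of the 150 and 26.6% of all genes tested. The 13 were picked by the libraries that chose the genes and were not tested against the rest.

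Genes called between the depodded groups of numbers 5 and 4 were then looked up in T295H. This split comes from libraries that ranked the genes, so it is a description only. Of the 11 genes higher in depodded leaves of number 5 than of number 4, 6 (54.5%) were higher in sterile leaves of day 63, against 85 of the 137 that were not called (62%). Neither of the 2 lower genes was called: Glyma.14G102700 had 30.6, 46.5 and 16.9 normalised counts in sterile leaves, against 46.7, 50.4 and 17.6 in controls. These groups of genes were not tested against each other, and nothing is read from their shares.

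At day 35, the first sampling of sterile leaves, few of these genes differed between sterile and control leaves. Limma called 1 of the 150 higher in sterile leaves and 0 lower, against 0.0953% and 0.0817% of all genes tested. At an unadjusted p under 0.05 it was 14 higher and 1 lower of the 131 tested. Of all 29370 genes tested, 3792 passed that limit in either direction. edgeR called 0 in both directions and DESeq2 4 higher and 0 lower. The median log2 change was 0.38 and 102 genes were positive, against a median of 0.01 over all genes tested. In 40 genes (26.7%) the 3 sterile libraries lay above the 3 controls, against 15% of all genes tested. Summed counts were 8722, 7138 and 11644 in sterile libraries, against 5865, 5056 and 5524 in controls, and without Glyma.03G028000 6962, 6214 and 7074, against 5231, 4938 and 5128.

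The gene called at day 35 was Glyma.07G014600, with 192, 96.6 and 810 normalised counts in sterile leaves, against 24.7, 8.76 and 4.45 in controls (log2 change 4.48, SE 0.8, adjusted p 0.037 in limma). The groups did not overlap, but the sterile mean of 366 was 144 without replicate 3. The call was lost without sterile replicate 1 (adjusted p 0.12) or 3 (0.23), without control replicate 2 (0.18) or 3 (0.17), and in edgeR (0.063). At day 63 the same gene had 6.45, 3.32 and 4.22 in sterile leaves and no count in controls, with both group means under the floor. Limma still called it higher in sterile leaves of day 63 (log2 change 2.46, SE 0.8, adjusted p 0.019). The genes called at day 63 thus include a gene with both means under the floor.

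**Figure D3:**
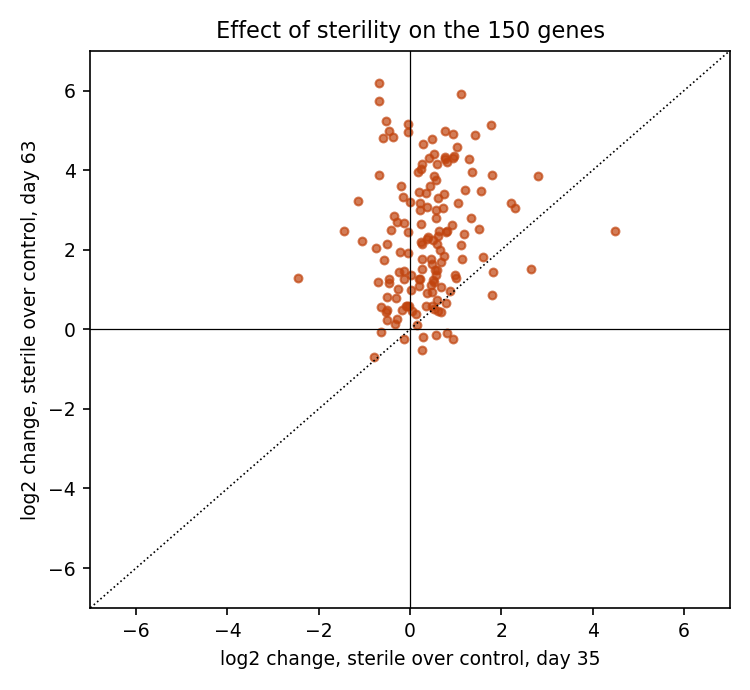
Log2 change of sterile over control leaves of T295H at day 63 (vertical) and at day 35 (horizontal), 1 point for each of the 150 low-control genes, with equal changes on the dotted line. The days share no library; 142 genes are above 0 at day 63 and 102 at day 35, with medians of 2.17 and 0.38.

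The change of the sterile effect between the days was tested as an interaction. The effect was more positive at day 63 than at day 35 in 55 of the 150 genes and less positive in 0, against 15.1% and 12% of all genes tested, with a median log2 difference of 1.69 over the 150 and of 0.03 over all genes tested. At an unadjusted p under 0.05 it was 72 and 0, against 11284 of all 29370 genes tested in either direction. With edgeR and DESeq2, 63 and 67 were called more positive and 0 less positive. In Glyma.U033700 the difference was 6.85 on the log2 scale (SE 0.63, adjusted p 2.4e-06 in limma): at day 35 it had 138, 163 and 58.5 normalised counts in sterile leaves, against 150, 219 and 165 in controls. In Glyma.08G120200 it was 6.43 (SE 0.6, adjusted p 2.4e-06 in limma), with 66.1, 24.9 and 88.6 in sterile leaves and no count in controls at day 63, and 43, 60.6 and 38.4 in sterile leaves, against 82.2, 57.8 and 89.1 in controls, at day 35.

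Levels over time in T295H show in which group the genes were low. The medians of the 150 group means were 24.5 in initial leaves, 35.7 in sterile and 27 in control leaves of day 35, and 30.3 in sterile and 5.42 in control leaves of day 63. The controls of day 63 were the lowest of the 5 groups in 130 genes (86.7%), against 38.9% of all genes in the table and 43% of those under the control limit in Williams 82.

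**Figure D4:**
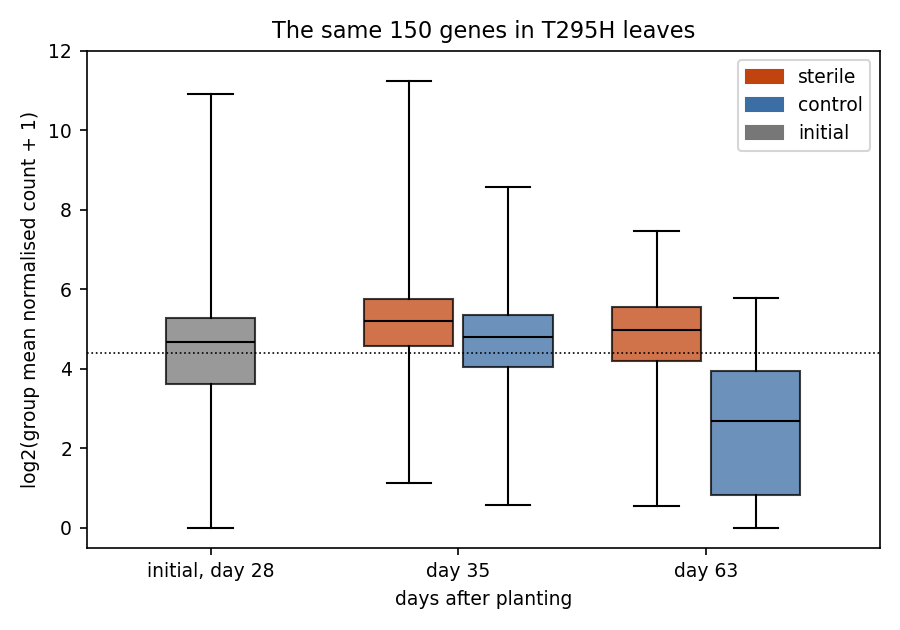
Group means of the same 150 genes in T295H on a log2(normalised count + 1) axis, with sterile groups left of the controls of the same day. Boxes span the quartiles, lines are medians and whiskers reach the lowest and highest gene; the dotted line marks a normalised count of 20, and the controls of day 63 have a median of 5.42 normalised counts and the other groups medians between 24.5 and 35.7.

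Controls of day 63 were lower than initial leaves of day 28 in 81 of the 150 genes (54%) and higher in 2 (1.33%), against 32.1% and 31.3% of all genes tested. The median log2 change was -1.69 over the 150 and 0.02 over all genes tested. Glyma.07G014600 had no count in controls of day 63, against 676, 335 and 75.3 normalised counts in initial leaves, at least 66.2-fold lower (log2 change -8.02, SE 0.8, adjusted p 5e-07 in limma). Glyma.03G028000 had 16.2, 5.04 and 5.27 in controls of day 63, against 2100, 2440 and 1190 in initial leaves (log2 change -7.72, SE 0.9, adjusted p 2.4e-06 in limma). The higher genes, named after their values were seen, were Glyma.02G074800, with means of 12.9 in controls of day 63 and 2.26 in initial leaves, and Glyma.15G121300, with 10.3 and 2.49 in the same order; all 4 means are under the highest floor of the initial libraries.

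A pair of comparisons was added after the data had been seen. Controls of day 63 were lower than controls of day 35 in 92 of the 150 genes (61.3%) and higher in 1, against 31.1% and 29.3% of all genes tested, with a median log2 change of -1.96. The higher gene was Glyma.14G102700, with 46.7, 50.4 and 17.6 normalised counts at day 63, against 12.3, 14 and 10.4 at day 35; it was not called without day 35 replicate 3 or day 63 replicate 1 or 2. Sterile leaves of day 63 were lower than those of day 35 in 15 genes (10%) and higher in 4 (2.67%), against 13.8% and 11.6% of all genes tested, with a median of -0.33. All 15 were among the 92 that were lower in controls, which are 70.2% of the 131 genes tested. The same overlap over all genes tested is not given, so nothing is read from it. The comparisons of day 63 controls with sterile leaves, initial leaves and controls of day 35 share the 3 control libraries of day 63 and are not independent of each other.

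The 4 genes higher in sterile leaves of day 63 than of day 35, named after their values were seen, were Glyma.06G263100, Glyma.09G063900, Glyma.20G116800 and Glyma.20G218100. Glyma.09G063900 had 56.4, 49.8 and 46.4 normalised counts at day 63, against 10.7, 5.68 and 7.31 at day 35, and its controls held 1.68 to 2.03 at day 63 and 1.75 to 10.3 at day 35. In Williams 82 it had 19.4 to 64.1 in the 9 later depodded libraries and 0 to 12.7 in the 15 initial and control libraries, with no overlap. The number of higher genes was 2 without sterile day 35 replicate 1 or 2 and 0 without replicate 3 of that group or replicate 1 or 2 of sterile day 63.

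By level, 113 of the 150 genes (75.3%) had a mean of at least 20 in initial leaves or controls of day 35 of T295H, against 70.5% of all genes in that table and 16.4% of those under the control limit in Williams 82. In 81 (54%) the mean was at least 20 in one of these groups, under 20 in controls of day 63 and at least 20 in sterile leaves of day 63, a pattern in 4.96% of genes under the control limit in Williams 82 and 7.38% of all genes in the table. In 37 genes (24.7%) the initial and both control means were under 20, against 23.5% of all genes in the table and 76.7% of those under the control limit. Of these 37, 12 reached 20 in sterile leaves of day 63, which is 8% of the 150, against 1.01% and 2.02% of the same sets. In 18 genes (12%) all 5 means were under 20, against 22% and 72.9%. A level of 20 is not the same amount of RNA in both tables.

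Of those 18 genes, Glyma.17G126000 and Glyma.06G296500 had the highest mean of log2(normalised count + 1) over the 9 depodded libraries, while by the untransformed mean other genes of the 18 lay above Glyma.06G296500. Glyma.17G126000 had 203, 193 and 212 normalised counts in depodded leaves of number 5, and 12.9, 8.3 and 8.43 in sterile leaves of day 63, against no count in controls of that day. Glyma.06G296500 had 101, 33.3 and 80 in depodded leaves of number 5, and 1.61, 9.96 and 5.62 in sterile leaves of day 63, against no count in controls. Neither had a table mean of at least 10 in T295H, so neither was tested there. At the other end, Glyma.03G028000 had the highest level of the 150 in initial leaves of T295H and 1760, 925 and 4570 in sterile leaves of day 35, against 635, 117 and 396 in controls; at day 63 it had 38.7, 3.32 and 85.7 in sterile leaves, against 16.2, 5.04 and 5.27 in controls, with overlap (adjusted p 0.18 in limma).

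**Figure D5:**
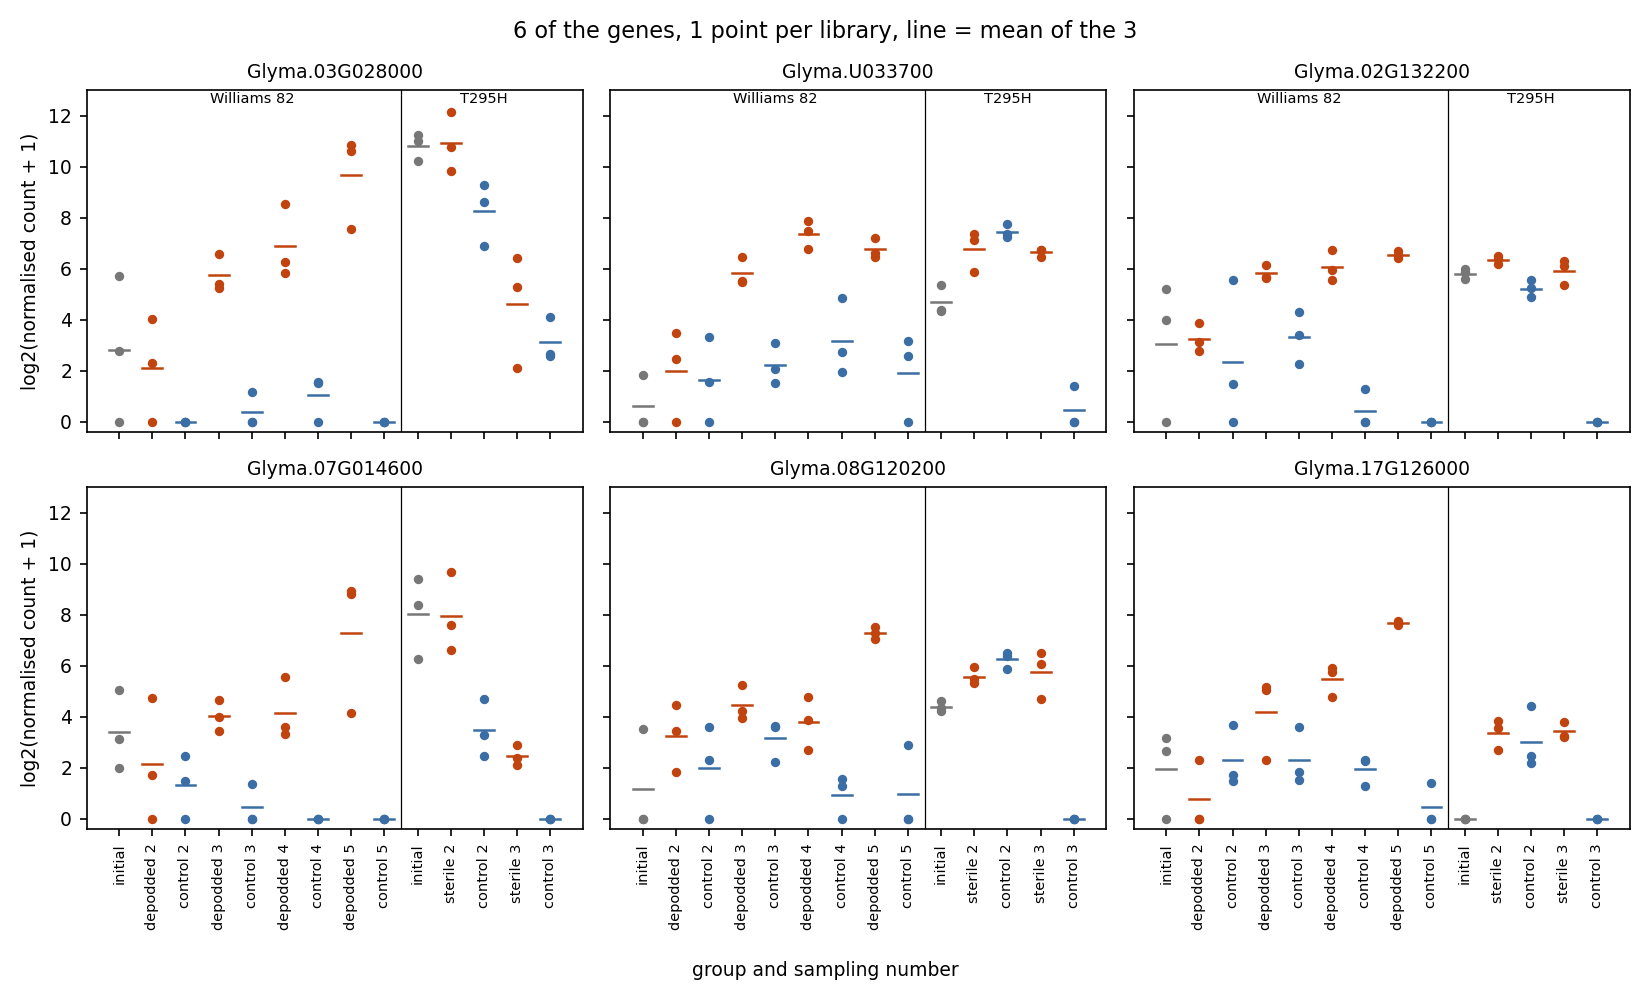
Values of 6 of the 150 genes in every library on a log2(normalised count + 1) axis, Williams 82 left and T295H right of the vertical line, 1 point per library, with a line at the mean of the 3 log2 values. Depodded and sterile libraries are drawn in orange left of the blue controls of the same number, initial libraries in grey; Glyma.02G132200 and Glyma.08G120200 have no count in the T295H controls of day 63 (control 3), while Glyma.03G028000 and Glyma.07G014600 spread widely within groups.

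By the chromosome number in their identifiers, the 150 genes lay on all 20 chromosomes and 1 was unplaced. Chromosomes 13 and 18 held 13 each (8.67%), against 6.91% and 4.91% of all genes in the table. In 8 places 2 of the genes had neighbouring identifiers, within 1000 units or 10 annotation steps, 16 genes in all, and no run was longer. Glyma.03G158900 and Glyma.03G159400, on chromosome 3, form one such pair. Glyma.03G158900 had 9.67, 18.3 and 28.1 normalised counts in sterile leaves of day 63, against 2.03, 3.36 and 1.76 in controls (adjusted p 0.00032 in limma). Glyma.03G159400 had 50, 33.2 and 36.5 in sterile leaves, against 14.2, 0 and 3.51 in controls (adjusted p 0.00078 in limma). Both were called higher, as were genes outside such pairs, and whether neighbouring genes share reads could not be checked without gene models.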

How the data were processed

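Leaf RNA of 2 soybean lines was sequenced in 42 libraries, 27 of Williams 82 and 15 of T295H. The authors deposited 1 table per line with a signal per gene and library; from the values, each column holds whole counts divided by 1 size factor. After division by that step, 100% of values were whole to within 0.01. Per the submitters' processing notes, Bowtie2 and DESeq2 were used; versions are not stated, nor are the build, the annotation and the use of strand. T295H identifiers carry a numbered ending, which was removed to match the tables.

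The main test was limma 3.58.1 (R 4.3.3) on log2(normalised count + 1) of genes with a table mean of at least 10, 29208 in Williams 82 and 29370 in T295H, with all groups of a table in 1 fit, two-sided, adjusted by Benjamini-Hochberg over all genes tested. Such changes understate those of low genes. Every comparison was rerun with edgeR 4.0.16 and DESeq2 1.42.0 on recovered counts, and the reruns for number 2 are not given here. On simulated counts for sterile against control leaves of day 63, limma called 48 of 50 genes raised 4-fold and 22 of 50 raised 2-fold, and 4 of 29003 unchanged ones. The simulation gave every gene the same relative spread beyond counting error and changed few genes. In controls of day 63 the median SD was 54.5% of the mean in the low-control genes and 21.4% in all genes tested. The simulated rates therefore do not measure power or false calls for the low-control genes. Counting intervals are exact Clopper-Pearson at 95%. No source states that replicate libraries are separate plants, so p-values measure the spread between libraries, which may be technical. No 2 libraries of a group agreed within sampling noise (lowest chi-square per degree of freedom 2.92).

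The genes, lists and comparisons were chosen with earlier results of these data known. Named genes are the 2 highest in depodded leaves of numbers 3 to 5 and of number 2, up to 2 higher and 2 lower per test if the higher group averaged 50 or more and libraries did not overlap, those at the edges of the choice, the longest run of identifiers, and the extremes in T295H. Lists by product name and organ markers could not be applied, since 0 of 39557 identifiers matched the 59048 RefSeq genes (Glycine_max_v4.0); leaf identity was therefore not checked by markers, and genes with near-identical copies, overlapping or antisense partners could not be recognised. No sequence is shown for the same reason.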

Additional observations from a re-analysis of the deposited data

Results flagged for a closer look

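The difference between the sterile effects of day 63 and day 35 in T295H was tested by an interaction term, and 55 of the 150 genes had a more positive effect at day 63. The genes with the largest such differences that met the rule for naming were Glyma.U033700, at 6.85 on the log2 scale, and Glyma.08G120200, at 6.43. In both, sterile leaves lay at similar levels on the 2 days and control leaves were far lower at day 63 than at day 35. Between the days, the log2 change in controls was -6.99 and -6.25 in the same order, and in sterile leaves -0.14 and 0.18. The cause of the difference was not tested. Groups of 3 libraries are too small for the range test for outlying samples, which was not run.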

How the results depend on the processing

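Leaving out 1 library at a time gave 83 to 89 genes higher in sterile than control leaves of day 63, 0 to 1 at day 35, 44 to 54 with a more positive effect at day 63, 77 to 81 lower and 2 to 3 higher in controls of day 63 than initial leaves, 83 to 91 lower and 0 to 1 higher than controls of day 35, and 11 to 15 lower and 0 to 3 higher in sterile leaves of day 63 than of day 35; for depodded number 5 against 4 it gave 5 to 11 higher and 1 to 4 lower, and 79 to 105 depodded means above the controls at number 2. Of the 150 genes, few have a mean of at least 50; under that filter the counts were 16 higher in sterile leaves of day 63, 17 lower and 0 higher in day 63 controls than initial leaves, 14 for the interaction, 17 lower and 0 higher in day 63 than day 35 controls, 3 lower and 1 higher in sterile leaves of day 63 than of day 35, and 0 and 0 for depodded number 5 against 4. A pseudocount of 5 gave 19 higher and 8 lower for that comparison, 1 less positive interaction and 7 higher between sterile days. Fits of only the compared groups gave 6 higher at day 35, 1 higher in day 63 controls than initial leaves, 23 and 6 for depodded number 5 against 4, and 7 between sterile days. edgeR gave 0 higher at day 35 and 1 in day 63 controls against initial leaves; DESeq2 gave 4 at day 35, 17 and 9 for depodded number 5 against 4, and 7 between sterile days. Without the filter, 4 were higher in day 63 controls than initial leaves. Lists with a limit of 10 gave 1 lower in sterile leaves of day 63, 0 higher at day 35, 32 for the interaction, 0 lower in depodded number 5, and 4 higher and 60 lower in day 63 than day 35 controls. Lists with a limit of 40 gave 1 lower in sterile leaves of day 63, 0 higher at day 35, 11 higher in day 63 controls than initial leaves, 2 less positive interactions, 6 lower in depodded number 5, 4 higher in day 63 than day 35 controls, and 26 lower between sterile days. Ranking by untransformed means gave 18 higher in depodded number 5, and ordering by day label 18 genes with a higher mean at each step in place of 55. Counts for depodded number 5 against 4 compare libraries that ranked the genes, so they are a description only. Shares over all genes are not given for the counts of this paragraph. How many of the 150 genes passed the filter at a mean of 50 is not given either. A change in a count between settings is therefore not read as a gain or loss of signal. The cause of these differences was not tested.

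Libraries with the same replicate number did not deviate together (correlations of -0.19 to 0.15), so the numbers do not pair them. With the replicate block, 91 genes were higher in sterile leaves of day 63 and 0 at day 35, where Glyma.07G014600 had an adjusted p of 0.051. For the named genes, 130 recomputed log2 changes kept direction and call and 7 kept direction but lost the call, 6 of them of Glyma.07G014600 and 1 of Glyma.08G120200. Depth limits what can be said of controls: 22 genes had no count in T295H controls of day 63, and most control values of the 150 genes rest on few pairs of counts.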
